A study of Mus musculus with 6 samples.

Results

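Genes of the aminoacyl-tRNA synthetases and of the scaffold proteins Aimp1 and Aimp2 were compared between Dicer KO and Dicer WT mouse CD4 T cells. The members were the array rows annotated with exactly 1 gene symbol of the synthetase naming pattern (an amino acid letter followed by "ars", with a suffix for the mitochondrial gene, a subunit or a paralogue), plus the scaffold genes; the rule uses names and no measured values, though the family was chosen with earlier results of these data known. The pattern found 37 rows for 36 of the 19935 genes measured: 18 cytosolic synthetases, 16 mitochondrial synthetases and the 2 scaffolds. Gars and Kars, which serve both compartments, were counted as cytosolic throughout. Aars shares its row with another gene and was not analysed here. Eprs, the joined glutamate and proline enzyme, is not spelled by the pattern and is given beside the members.

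The 3 Dicer KO samples came from mice with floxed Dicer alleles and Cre under the Cd4 promoter, and the 3 Dicer WT samples from mice with the same floxed alleles and no Cre. The genotypes thus differ in the presence of Cre as well as in Dicer. All 6 samples were CD4+CD62L- T cells that the labels call resting, sorted from lymph nodes without treatment; ages were not stated. Dicer is the enzyme that frees mature microRNAs from their hairpin precursors, and Cre from the Cd4 promoter acts during T cell development in the thymus, in cells that later become either CD4 or CD8 T cells. The series calls the samples biological replicates.

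An aminoacyl-tRNA synthetase joins an amino acid to the tRNAs that decode it, the step that gives the genetic code its meaning. Mammals make separate cytosolic and mitochondrial enzymes for most amino acids, all encoded in the nucleus; the mitochondrial set serves the few proteins translated inside the organelle. Class I and class II enzymes have unrelated catalytic folds. Several cytosolic enzymes are held with the scaffold proteins Aimp1 and Aimp2 in a large multi-synthetase complex. In mammalian cells short of amino acids, the transcription factor Atf4 raises the genes of many cytosolic synthetases, and growing lymphocytes need high rates of tRNA charging.

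Promoter sequences of some members are shown with matches to short motifs marked. The stretches were picked with the calls and matches known, so they are examples and test nothing. Of the 36 members, 27 were read in the RefSeq promoter table (build GRCm38.p6, 300 bases per entry, mostly upstream of the start site). The other members were left out of the motif counts, which says nothing about whether the table holds them. Sequences are given on the gene's own strand, with capitals marking matches to the Atf4-type motif TGATGNAAN or its reverse complement, or to the E-box CACGTG, the binding motif of Myc. Position -1 is the base before the start site. The first 3 stretches below belong to genes that were higher in Dicer KO, and the fourth, of the gene that was lower, has neither motif in its 300 bases. They are Iars at chr13:49682010-49682129 (+), Gars at chr6:55037881-55038000 (+), Tars at chr15:11399659-11399778 (-) and Tars2 at chr3:95754978-95755097 (-), each from position -120 to -1.
Iars: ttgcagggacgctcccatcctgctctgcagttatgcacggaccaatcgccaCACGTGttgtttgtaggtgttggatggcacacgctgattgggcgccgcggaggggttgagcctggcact
Gars: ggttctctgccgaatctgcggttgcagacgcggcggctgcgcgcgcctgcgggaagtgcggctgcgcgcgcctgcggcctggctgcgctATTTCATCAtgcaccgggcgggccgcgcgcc
Tars: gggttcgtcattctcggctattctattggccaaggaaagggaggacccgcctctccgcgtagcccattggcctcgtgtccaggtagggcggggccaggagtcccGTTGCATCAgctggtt
Tars2: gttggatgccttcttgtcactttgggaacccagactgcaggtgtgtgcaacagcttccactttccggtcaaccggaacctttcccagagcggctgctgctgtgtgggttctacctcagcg

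In Iars and Yars the Atf4-type match lay just inside the transcript, at positions 7 to 15 and 4 to 12. The sites, with their flanks, are at chr13:49682127-49682153 (+) for Iars and chr4:129189897-129189923 (+) for Yars.
Iars site: actgtcagtATTGCATCAcctccagac
Yars site: gagctcagcTGATGCAACccgacggga

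The Atf4-type motif, searched on both strands, was present for 4 of the 27 members read (14.8%), namely Gars, Iars, Tars and Yars. It was present for 4.50% of the 27025 genes in the table. The share of all genes rests on every gene in the table, and that of the members only on those read. Of the 9 members that rose in Dicer KO, 5 had an entry read here. Of these 5, 3 held the motif, against 1 of the 22 other members read. The 4 members holding it are all cytosolic synthetases, while the 22 others include mitochondrial genes, so this contrast also mixes compartments. It was set out with the calls known and was not tested. The E-box was present for 4 members (14.8%), namely Ears2, Farsb, Iars and Tars, against 8.09% of all genes. By call, 2 of the 5 members that rose held it, and 2 of the 22 others. The motifs did not overlap each other in any member. A match is a run of letters, and a missing match says only that the letters are not in this window.

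Every value below is a deposited log2 value from which the authors had taken the median of its row, so values compare arrays for 1 gene and give no level. In a row whose genotypes do not overlap, this centring places the lowest array of the upper genotype and the highest of the lower one at equal distances from 0. The row of Dicer1 read 0.21, -0.02 and -0.09 on Dicer KO 1 to 3, against 0.12, 0.02 and -0.10 on Dicer WT 1 to 3 (limma adjusted p = 0.949), and the exons read by its probes are not given in the sources, so it checks nothing about the deletion. A second principal component with 21.2% of the variance set Dicer KO 3 (-10.5) and Dicer WT 3 (-14.1) apart from Dicer KO 1 (10.2), Dicer WT 1 (8.05) and Dicer WT 2 (8.22). The 9 measured B cell markers had medians of 0.16, 0.05 and 0.12 on Dicer KO 1 to 3, against -0.56, 0.02 and -0.22 on Dicer WT 1 to 3. The centring removed levels, apart from a coarse level class that the stored numbers still give, described below. All 6 CD4 T cell markers were in the higher class, as were 1 of the 9 B cell markers and 16.4% of all genes. The class does not say how many cells carried a marker.

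Many cytosolic synthetase genes were higher in Dicer KO cells. No gene of the mitochondria alone passed as higher in the main fit, which weighted all 6 arrays alike. Of 18 cytosolic synthetases, 9 rose in Dicer KO and 0 fell in the limma test at adjusted p below 0.05 (12 and 1 at an unadjusted p below 0.05). Over all genes tested, 8.73% were called, 5.94% higher and 2.79% lower. The cytosolic median difference was 0.25, a 1.19-fold higher value in Dicer KO, where the median of all genes was -0.011. Of 16 synthetases of the mitochondria alone, 0 rose and 1, Tars2, fell (1 and 4 unadjusted), with a median of -0.12. Gars, which serves both compartments, is among the 9 that rose. The difference was positive for 16 of the 18 cytosolic but 5 of the 16 mitochondrial genes, against 45.2% of all genes. These counts and medians describe the lists, and the lists as such were not tested.

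**Figure D1:**
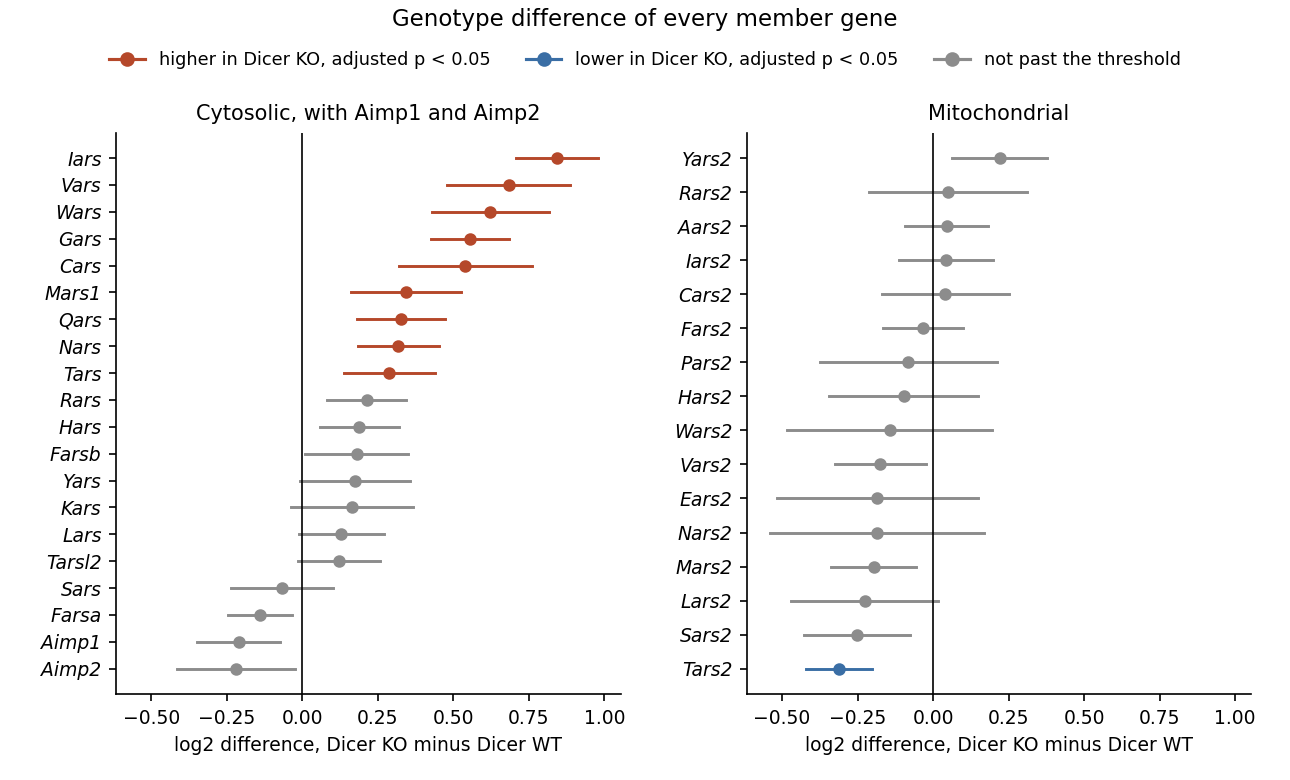
Difference of Dicer KO minus Dicer WT on the log2 scale (x axis) for each member gene (y axis), with points for the estimate and lines for its 95% confidence interval from limma (3 arrays per genotype). Coloured genes passed adjusted p below 0.05: 9 cytosolic genes lie to the right of 0 and the mitochondrial gene Tars2 to the left.

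The isoleucine enzyme gene Iars, a member of the multi-synthetase complex, showed the largest difference of the members. It read 0.42, 0.47 and 0.39 on Dicer KO 1 to 3, against -0.42, -0.49 and -0.34 on Dicer WT 1 to 3. All 3 Dicer KO arrays lay well above all 3 Dicer WT arrays, with a 1.79-fold higher value in Dicer KO (log2 0.84 ± 0.06 SE, n = 3 per genotype, limma adjusted p = 0.000799). Iars is the member with 2 rows, and each gave a similar difference, 0.93 and 0.76. Its promoter stretches shown above carry both motifs.

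The valine enzyme gene Vars was next. It read 0.21, 0.34 and 0.31 on Dicer KO 1 to 3, against -0.47, -0.51 and -0.21 on Dicer WT 1 to 3, so that Dicer WT 3 lay closest to the Dicer KO arrays. The value was 1.61-fold higher in Dicer KO (log2 0.68 ± 0.09, adjusted p = 0.00497). Wars encodes the tryptophan enzyme, which in human cells is also induced by interferon gamma. Wars read 0.22, 0.26 and 0.50 on Dicer KO 1 to 3, against -0.34, -0.33 and -0.22 on Dicer WT 1 to 3, and was highest on Dicer KO 3 (1.54-fold, log2 0.62 ± 0.08, adjusted p = 0.00566).

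Gars encodes the glycine enzyme of both the cytosol and the mitochondria, made from a single gene. Its values were 0.24, 0.24 and 0.33 on Dicer KO 1 to 3, against -0.24, -0.35 and -0.25 on Dicer WT 1 to 3. The genotypes were tight and separate, and the value was 1.47-fold higher in Dicer KO (log2 0.55 ± 0.05, adjusted p = 0.00231). Kars, whose gene likewise serves both compartments with the lysine enzyme, did not pass (log2 0.16 ± 0.09, adjusted p = 0.346). Cars, the cysteine enzyme, read 0.21, 0.15 and 0.19 on Dicer KO 1 to 3, against -0.43, -0.50 and -0.15 on Dicer WT 1 to 3. Dicer WT 3 stood apart from the other WT arrays for Cars, and the genotypes did not overlap (1.45-fold, log2 0.54 ± 0.09, adjusted p = 0.0150).

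The other 4 cytosolic genes that rose did so by less. Mars1, the methionine enzyme that also charges the initiator tRNA, read 0.14, 0.07 and 0.12 on Dicer KO 1 to 3, against -0.33, -0.30 and -0.07 on Dicer WT 1 to 3 (log2 0.34 ± 0.08, adjusted p = 0.0389). Qars, the glutamine enzyme of the complex, read 0.10, 0.15 and 0.25 on Dicer KO 1 to 3, against -0.23, -0.16 and -0.10 on Dicer WT 1 to 3 (log2 0.33 ± 0.06, adjusted p = 0.0204). On both genes Dicer WT 3 was the WT array nearest to Dicer KO.

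Nars, the asparagine enzyme, read 0.17, 0.10 and 0.22 on Dicer KO 1 to 3, against -0.10, -0.13 and -0.22 on Dicer WT 1 to 3 (log2 0.32 ± 0.06, adjusted p = 0.0170). Tars, the threonine enzyme, read 0.13, 0.12 and 0.10 on Dicer KO 1 to 3, against -0.10, -0.13 and -0.30 on Dicer WT 1 to 3 (log2 0.29 ± 0.06, adjusted p = 0.0371). For Nars and Tars, Dicer WT 3 was the lowest array, the opposite of its place on Vars, Cars and Mars1.

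**Figure D2:**
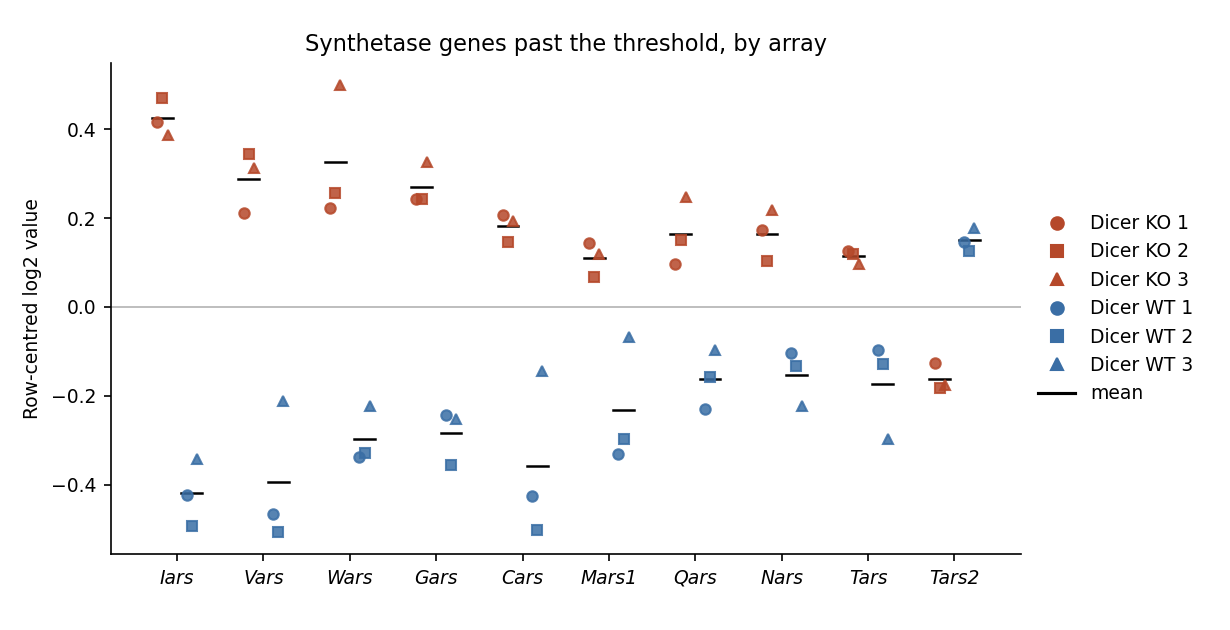
Row-centred log2 values (y axis) of the 10 member genes with limma adjusted p below 0.05 (x axis), Dicer KO arrays left of Dicer WT arrays, with 1 symbol per array and a bar for the mean of 3 arrays. Each of the 9 genes from Iars to Tars has its 3 Dicer KO arrays above 0 and its 3 Dicer WT arrays below, and Tars2 has the reverse.

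With 1 array left out in turn, Iars, Vars, Wars, Gars and Tars2 passed in all 6 fits, the highest adjusted p being 0.0496, for Tars2. The other 5 did not. Cars lost its call without Dicer KO 2 or Dicer WT 1 (adjusted p 0.0601 and 0.0651), and Nars without Dicer KO 1 or Dicer WT 2 (0.0503 and 0.0532). Qars lost it without Dicer KO 2, Dicer KO 3, Dicer WT 1 or Dicer WT 2 (0.0518 to 0.0801), Mars1 without any array but Dicer WT 3 (0.0933 to 0.126), and Tars without any 1 array (0.0508 to 0.128). The number of cytosolic genes called higher was 6 without Dicer KO 1, 5 without Dicer KO 2, 6 without Dicer KO 3, 5 without Dicer WT 1, 5 without Dicer WT 2 and 9 without Dicer WT 3. In the same order, 6.63%, 3.66%, 7.10%, 4.26%, 5.27% and 8.01% of all genes were called in either direction. In each of these fits 16 of the 18 differences were positive, and the cytosolic median stayed between 0.24 and 0.27. Without both Dicer KO 3 and Dicer WT 3, the arrays apart on the second component, 7 cytosolic genes rose and the median was 0.26. That fit called 8.38% of all genes in either direction. Leaving out Dicer WT 1 together with Dicer WT 3, on which B cell markers were low, 4 rose and the median was 0.26, in a fit whose lone WT array was assumed to vary as the Dicer KO arrays do and in which 1.07% of all genes were called.

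Of the other 9 cytosolic synthetases, 7 had a positive difference. Rars, the arginine enzyme of the complex, read 0.15, 0.04 and 0.15 on Dicer KO 1 to 3, against -0.11, -0.14 and -0.04 on Dicer WT 1 to 3, without overlap but also without a call (log2 0.21 ± 0.06, adjusted p = 0.0621). Hars, Farsb, Yars, Kars, Lars and Tarsl2 lay between 0.12 and 0.19, with adjusted p of 0.0914 or more. Yars, whose start site shows the Atf4-type motif, read 0.01, 0.01 and 0.00 on Dicer KO 1 to 3, against -0.27, -0.25 and 0.00 on Dicer WT 1 to 3, so that Dicer WT 3 was level with the Dicer KO arrays (adjusted p = 0.258). The serine enzyme gene Sars (log2 -0.07 ± 0.07, adjusted p = 0.694) and Farsa (log2 -0.14 ± 0.04, adjusted p = 0.113) had negative differences. Farsa and Farsb encode the subunits of 1 enzyme, the phenylalanine synthetase, and their differences had opposite signs, -0.14 and 0.18, neither past the threshold. Eprs had a difference of 0.20 ± 0.12 with overlapping arrays (adjusted p = 0.428).

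By enzyme class, 6 of 9 class I cytosolic genes rose, with a median of 0.34, and 3 of 9 class II genes, with a median of 0.18. All 9 class I genes had a positive difference, from 0.13 for Lars to 0.84 for Iars, against 7 of 9 class II genes. By place, 3 of the 6 members that are synthetases of the multi-synthetase complex rose (Iars, Mars1 and Qars, median 0.27). Outside it 6 of 12 rose (median 0.24). Eprs, given beside the members, was not counted. The 10 synthetases listed as raised by Atf4 in the amino acid response had 7 members higher and a median of 0.33, against 2 of the 8 others (Vars and Qars; median 0.18). Over all genes 5.94% rose, and 20.1% of those in the higher level class described below. That class held 7 of the 9 class I and 5 of the 9 class II genes. It held all 6 complex synthetases counted and 6 of the 12 outside. Of the 10 listed for Atf4 it held 7, and of the 8 others 5. No test was run between these subgroups, which share arrays and hold few genes.

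The scaffold genes went the other way in sign from the synthetases they hold. Aimp1 read -0.20, -0.11 and -0.04 on Dicer KO 1 to 3, against 0.04, 0.11 and 0.12 on Dicer WT 1 to 3 (log2 -0.21 ± 0.06, adjusted p = 0.0743). Aimp2 read -0.24, -0.19 and 0.00 on Dicer KO 1 to 3, against 0.00, 0.03 and 0.20 on Dicer WT 1 to 3 (log2 -0.22 ± 0.08, adjusted p = 0.175). The Dicer KO arrays lay below the Dicer WT arrays for both, by almost nothing for Aimp2, and neither passed. All 6 complex synthetases among the members had a positive difference. Eef1e1, a further scaffold of the complex that was chosen for naming after its values were seen, also had a negative difference that did not pass (log2 -0.29 ± 0.12, adjusted p = 0.200), with overlapping arrays.

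The mitochondrial gene that fell, Tars2, encodes the threonine enzyme of the organelle. It read -0.13, -0.18 and -0.18 on Dicer KO 1 to 3, against 0.15, 0.13 and 0.18 on Dicer WT 1 to 3, with little spread in either genotype. The value was 1.24-fold higher in Dicer WT (log2 -0.31 ± 0.05, adjusted p = 0.00908). Tars2 lost its call without both Dicer WT 1 and Dicer WT 3 (adjusted p = 0.174).

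Sars2, the serine enzyme, was the next lowest, at -0.12, -0.04 and -0.28 on Dicer KO 1 to 3, against 0.04, 0.10 and 0.18 on Dicer WT 1 to 3 (log2 -0.25 ± 0.07, adjusted p = 0.0927). Lars2, the leucine enzyme, read -0.02, -0.04 and -0.39 on Dicer KO 1 to 3, against 0.14, 0.06 and 0.02 on Dicer WT 1 to 3 (log2 -0.23 ± 0.10, adjusted p = 0.271), with Dicer KO 3 far below the other arrays. Yars2, the tyrosine enzyme, had the highest mitochondrial difference, at 0.03, 0.24 and 0.20 on Dicer KO 1 to 3, against -0.08, -0.03 and -0.10 on Dicer WT 1 to 3 (log2 0.22 ± 0.07, adjusted p = 0.0988). Sars2, Lars2 and Yars2 had arrays that did not overlap but did not pass, apart from Yars2 without Dicer KO 1 (adjusted p = 0.0408) or with array weights (0.0466).

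Wars2, the mitochondrial counterpart of Wars, varied widely within each genotype, at 0.23, -0.22 and -0.10 on Dicer KO 1 to 3, against 0.35, 0.09 and -0.09 on Dicer WT 1 to 3 (log2 -0.14 ± 0.14, adjusted p = 0.670). The remaining 11 mitochondrial genes had differences from -0.20 for Mars2 to 0.05 for Rars2, none of them called. The median of the mitochondrial genes was -0.02, -0.02 and -0.13 on Dicer KO 1 to 3, against 0.04, 0.06 and -0.01 on Dicer WT 1 to 3, so the gap was small beside that of the cytosolic genes, whose medians were 0.14, 0.12 and 0.16 on Dicer KO 1 to 3, against -0.17, -0.15 and -0.08 on Dicer WT 1 to 3. The mitochondrial median difference was -0.04 without Dicer KO 3 and -0.04 without Dicer WT 1.

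**Figure D3:**
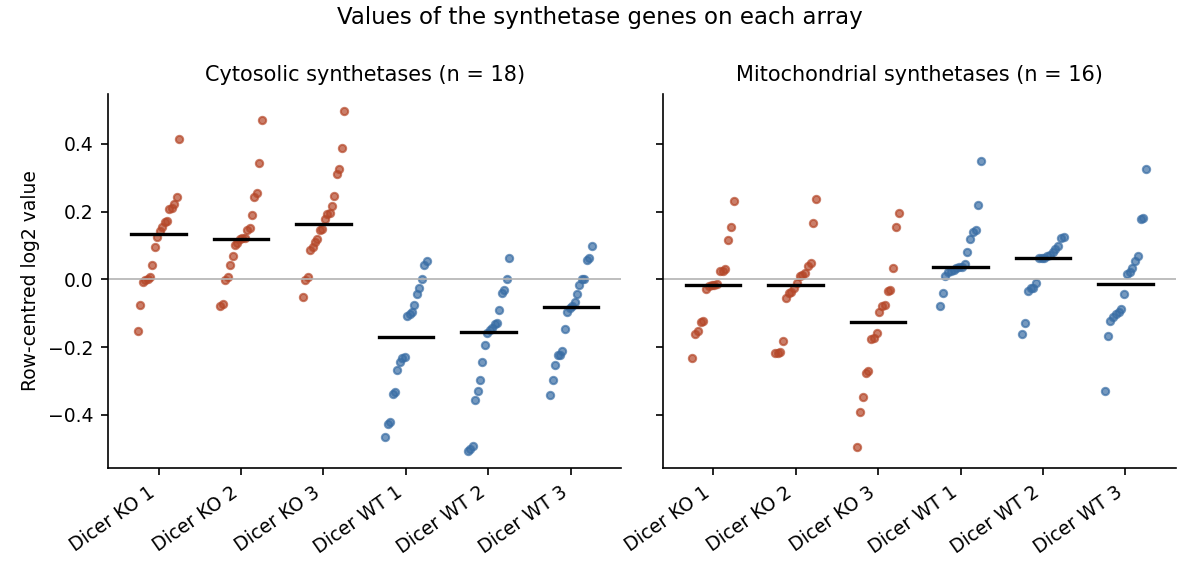
Row-centred log2 values (y axis) on each array (x axis), with 1 point per gene and a bar for the median, for 18 cytosolic synthetases (left) and 16 mitochondrial synthetases (right). The cytosolic medians lie between 0.12 and 0.16 on the Dicer KO arrays and between -0.17 and -0.08 on the Dicer WT arrays, while the mitochondrial medians lie between -0.13 and 0.06 on all 6.

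Among all 36 members, 13 had every Dicer KO array above every Dicer WT array and 8 had every one below, together 58.3%, where the genotypes were likewise separate for 26.2% of the 19935 genes. Most of the upper set was cytosolic (12 of 13, the other being Yars2). The lower set held 5 mitochondrial genes, Farsa, Aimp1 and Aimp2.

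For 12 amino acids a cytosolic gene was set against the mitochondrial one, which allows the comparison within an array. Phenylalanine, also measured in both compartments, was left out of these pairs. Its cytosolic subunit genes Farsa and Farsb had differences of -0.14 and 0.18, and its mitochondrial gene Fars2 had -0.03. Eprs, Ears2, Pars2 and Tarsl2 were not paired either. Subtracting the mitochondrial value from the cytosolic one left a positive genotype difference for 11 of the 12 amino acids, from 0.16 for arginine to 0.86 for valine, and -0.05 for tyrosine. In 8 of the 12, every Dicer KO array lay above every Dicer WT array, as in 13.5% of all single genes. No matching share was computed for pairs of other genes. In each of these 8 pairs but that of leucine, the cytosolic gene was called higher by itself, so the pairs repeat those calls in part. For threonine, the pair in which each gene was called by itself and in opposite directions, the cytosolic minus mitochondrial value was 0.25, 0.30 and 0.27 on Dicer KO 1 to 3, against -0.24, -0.25 and -0.48 on Dicer WT 1 to 3. For valine it was 0.23, 0.56 and 0.49 on Dicer KO 1 to 3, against -0.50, -0.57 and -0.23 on Dicer WT 1 to 3. Arginine, histidine, serine and tyrosine pairs overlapped between genotypes. No pair difference was tested, and these values are a description.

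**Figure D4:**
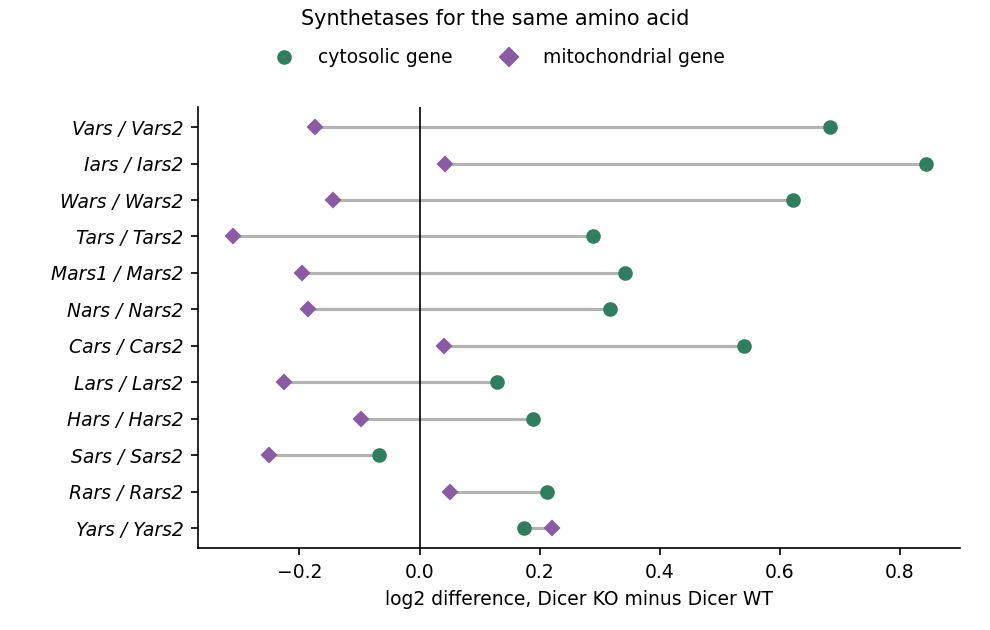
Difference of Dicer KO minus Dicer WT on the log2 scale (x axis) for the cytosolic gene (circle) and the mitochondrial gene (diamond) of each of 12 amino acids (y axis), joined by a line. The cytosolic circle lies to the right of the mitochondrial diamond for 11 amino acids, tyrosine being the exception.

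The members differed by level class, which the stored numbers give coarsely. Of the 18 cytosolic synthetases, 12 were in the higher class and 7 of these rose (58.3%), where 20.1% of the 3278 genes of that class did. The 6 cytosolic genes of the other class had 2 members higher, Cars and Tars (33.3%), where 3.15% of the 16657 genes outside the higher class rose. Their median was 0.18, where the median of all genes outside the higher class was -0.019. Of the 16 mitochondrial genes only Tars2 was in the higher class, in which 4.33% of genes fell and the median of all genes was 0.10. The part that level plays in the gap between the compartments was not tested. A gene that reaches the higher level in 1 genotype alone can miss that class, so the class is not independent of the difference.

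Other genes that act on tRNA were also read. Of 12 tRNA charging partners, a list that includes Eprs, 0 rose and 2 fell (1 and 4 at an unadjusted p below 0.05), with a median of -0.11. The 2 that fell are 16.7% of this short list, where 5.94% of all genes rose and 2.79% fell. Dtd1, which removes D-amino acids joined to tRNA by mistake, read -0.19, -0.26 and -0.21 on Dicer KO 1 to 3, against 0.37, 0.19 and 0.28 on Dicer WT 1 to 3 (log2 -0.50 ± 0.06, adjusted p = 0.00445). It passed with any 1 array left out. Qrsl1 is a subunit of the enzyme that makes mitochondrial glutamine tRNA by converting glutamate already joined to it. Qrsl1 also fell (log2 -0.25 ± 0.06, adjusted p = 0.0451), a call held only without Dicer WT 3 among the fits with 1 array left out (up to 0.140 in the others).

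Of 35 measured genes of tRNA maturation and modification, 1 rose and 5 fell, or 14.3% lower beside 2.79% of all genes, with a median of -0.11 and 24 negative differences. Mettl1, which methylates a guanine of many tRNAs, read -0.34, -0.42 and -0.15 on Dicer KO 1 to 3, against 0.53, 0.15 and 0.48 on Dicer WT 1 to 3 (log2 -0.69 ± 0.11, adjusted p = 0.0129). Its partner subunit Wdr4 read -0.10, -0.19 and -0.12 on Dicer KO 1 to 3, against 0.11, 0.16 and 0.10 on Dicer WT 1 to 3 (log2 -0.26 ± 0.05, adjusted p = 0.0223). Both subunits of this enzyme were thus lower in Dicer KO.

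The tRNA guanine methyltransferase Trmt1 (log2 -0.34 ± 0.06, adjusted p = 0.0137) and the pseudouridine synthase Pus1 (log2 -0.35 ± 0.06, adjusted p = 0.0164) were lower too. Trmt1 passed with any 1 array left out. Mettl1 did not pass without Dicer KO 2 or Dicer WT 1 (0.0531 and 0.0621), Pus1 without Dicer KO 2, Dicer WT 1 or Dicer WT 2 (0.0592 to 0.0611), and Wdr4 without Dicer KO 2, Dicer KO 3, Dicer WT 1 or Dicer WT 2 (0.0502 to 0.0938). The number of genes of this list called lower was 1 without Dicer KO 2, 1 without Dicer WT 1 and 3 without Dicer WT 2, and it was 0 with Dicer WT 1 and Dicer WT 3 both left out.

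Of 26 genes of RNA polymerase III, which transcribes tRNA genes, and its factors, 2 rose (7.69%, beside 5.94% of all genes) and 0 fell (5 and 4 unadjusted), with a median of 0.01. The median had no stable sign: it was -0.05 without Dicer WT 3, where 1 rose and 2 fell, and between -0.02 and 0.03 without any other array. In all, 1 rose without Dicer KO 1 or Dicer WT 2, and 0 without Dicer KO 2, Dicer KO 3 or Dicer WT 1. The factor subunit Gtf3c3 (log2 0.47 ± 0.09, adjusted p = 0.0227) and the polymerase subunit Polr3f (log2 0.31 ± 0.06, adjusted p = 0.0281) were higher. Gtf3c3 lost its call without Dicer KO 2, Dicer KO 3, Dicer WT 1 or Dicer WT 2 (0.0504 to 0.0778) and Polr3f without any array but Dicer WT 2 (0.0595 to 0.0995).

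Of 27 further genes of the Atf4 amino acid response, 2 rose and 2 fell (7.41% each, beside 5.94% and 2.79% of all genes), with a median of -0.05 and 19 negative differences, where the 10 cytosolic synthetases listed for the same response had a median of 0.33. The median was -0.03 without Dicer WT 1 and -0.02 without Dicer WT 3. The mitochondrial folate enzyme Mthfd2 (log2 0.34 ± 0.07, adjusted p = 0.0339) and the stress protein Sesn2 (log2 0.27 ± 0.06, adjusted p = 0.0431) were higher. The glutamine transporter Slc1a5 (log2 -1.22 ± 0.23, adjusted p = 0.0198) and the transcription factor Atf5 (log2 -0.26 ± 0.06, adjusted p = 0.0394) were lower. Slc1a5 lost its call without Dicer WT 1 or Dicer WT 2 (0.0754 and 0.0808), Mthfd2 without any array but Dicer WT 3 (0.0782 to 0.104), Sesn2 without any array but Dicer KO 3 (0.0729 to 0.153) and Atf5 without any 1 array (0.0530 to 0.128). Of 7 genes of the eIF2 kinases and their phosphatase, which set Atf4 translation, Eif2ak3 alone rose (log2 0.32 ± 0.06, adjusted p = 0.0191) and 0 fell (1 unadjusted). This 1 gene is 14.3% of the list, beside 5.94% of all genes. Eif2ak3 lost its call without Dicer KO 1, Dicer KO 2, Dicer KO 3 or Dicer WT 1 (0.0527 to 0.0692).

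Of 6 CD4 T cell markers, Cd4 rose (log2 0.67 ± 0.07, adjusted p = 0.00328) and Cd5 fell (log2 -0.44 ± 0.06, adjusted p = 0.00704), each also with any 1 array left out. Each is 16.7% of the list, where 20.1% of genes in the higher level class rose and 4.33% fell. Some markers of other cells also differed by genotype. Bank1 of the B cell markers (log2 0.71 ± 0.11, adjusted p = 0.00975) and Lyz2 of the myeloid markers (log2 0.69 ± 0.12, adjusted p = 0.0165) were higher in Dicer KO. They are 11.1% and 12.5% of their lists, beside 5.94% of all genes. Bank1 lost its call without Dicer KO 2 (0.0515) and Lyz2 without Dicer KO 2 or Dicer WT 1 (0.0654 and 0.0699). All 9 B cell and all 5 NK cell markers had positive differences, with medians of 0.29 and 0.22, while the 8 myeloid markers had a median of -0.02, the 6 plasma cell markers 0.06, the CD8 markers Cd8a and Cd8b1 -0.17 and the erythroid marker Alas2 -0.03. The B cell median was 0.16 without Dicer WT 1 and 0.44 without Dicer WT 2, where 4 markers and 5.27% of all genes were called. It was 0.07 with Dicer WT 1 and Dicer WT 3 both left out. The part of these markers in the synthetase differences was not tested.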

How the data were processed

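Total RNA of 6 samples was amplified and hybridised to Affymetrix MoGene 1.0 ST arrays, per the labels' protocols. The authors deposited 1 table of log2 values (28815 rows); the log base is not stated and base 2 is assumed for each fold. The submitters' processing notes name MAS5. The values showed that each row was centred on its median over the arrays (largest absolute row median 5e-07). The normalization of the arrays is not stated in these sources. Rows with 1 gene symbol in GEO's platform annotation (21780) were kept and 21689 were renamed through RefSeq gene IDs (GRCm38.p6); rows with several symbols (1605) or none here (5430) were left out. All 37 member rows matched. Rows of a gene were averaged, giving 19935 genes. No filter on a measured level was possible; the coarse level class below served as an alternative filter.

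Dicer KO was compared with Dicer WT with lmFit and eBayes of limma 3.58.1 (R 4.3.3). Benjamini-Hochberg adjustment ran over the whole table, and the threshold was 0.05. Each adjusted p is from this fit unless arrays left out or another setting are named beside it, and errors are the SE of this fit. The procedure was tested on simulated data. The number of arrays limits the precision. A row was put in the higher level class where differences between its arrays were whole multiples of the coarser binary step that larger numbers are stored with. The members and lists were chosen with earlier results of these data known. Named in full were called members, the 6 uncalled ones of largest absolute difference, Wars2 and Eprs, and from each other list up to 4 called genes by lowest p. Alternatives were a replicate block, each array left out, array centring, quantile normalization, array weights, a robust fit, the widest row per gene, the higher level class alone and the removal of Dicer WT 1 and Dicer WT 3; the removal of Dicer KO 3 and Dicer WT 3, and all values by compartment, were added after seeing the data. A planned comparison of protein sequences was not analysed here. Deviations from the genotype means correlated at 0.274, -0.0763 and 0.300 for samples numbered 1, 2 and 3. Those numbered 1 and those numbered 3 correlated best with each other, and those numbered 2 did not. The labels state no pairing, and the main fit used none.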

Additional observations from a re-analysis of the deposited data

How the results depend on the processing

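Over single arrays left out, the members called higher numbered 5 to 9 and all genes called 729 to 1597, and the medians ran from 0.0041 to 0.11 for all members and from -0.17 to -0.038 for mitochondrial ones. Without Dicer WT 1 and Dicer WT 3, 4 members were higher, 0 lower and 213 genes called, in a fit with fewer samples. In the higher level class alone, where fewer genes were tested, 1018 genes were called and the medians were 0.32 for the members, 0.32 for cytosolic ones and -0.31 for Tars2, the lone mitochondrial one. With array weights 11 members were higher, with Rars and Yars2 added, and 3 lower, Tars2 with Aimp1 and Mars2, and 2537 genes were called; the cause was not tested. Without Dicer KO 3 and Dicer WT 3 the median of all members was 0.072. With the replicate number as a block, 9 members were higher, 1 lower and 2063 genes called; not every sample correlated best with its own number. Array centring, quantile normalization, the robust fit and the widest row left 9 higher and 1 lower. Of the values of the 10 called members, the 6 further named and Wars2 under these alternatives, 215 kept their side of the threshold, 27 lost the call, 5 gained it and 0 changed sign.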
